A study of Mus musculus with 6 samples.

Results

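The interferon response genes described here are 9 genes that cells switch on after exposure to interferons, the cytokines of antiviral defence: Ifit1, Ifit2, Ifit3, Isg15, Irf1, Irf7, Usp18, Rsad2 and Cxcl10. Members were found as every probe set whose symbol in the array's platform annotation is exactly one of these names. No measured value entered this matching, but the 9 genes themselves were chosen with earlier results of these data known. The rule gave 10 probe sets for 8 genes, of 45037 probe sets tested for 18193 genes. Rsad2 has 3 of them and the other 7 genes have 1 each. Isg15 appears only on a probe set annotated to 2 genes, so no value is given for it.

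The 6 arrays measured RNA in mouse mesenchymal stem cells (mMSC), stromal precursors of fat, cartilage and bone, in 3 independent experiments. In each experiment 1 culture was exposed to a pulsed broadband terahertz (THz) source and 1 control culture stood next to it unexposed, both at 26 to 27 degrees C. The exposure lasted 2 hours, with pulses of 35 fs centred near 10 THz, repeated at 1 kHz, and a mean power of 1 mW/cm2, and RNA was taken directly afterwards. All 6 cultures, controls included, came from a commercial cell stock and had received dexamethasone at 1 µM, the phosphodiesterase inhibitor 3-isobutyl-1-methylxanthine at 100 µM, insulin at 5 µg/ml and rosiglitazone at 1 µM, given again 48 hours before exposure. This mixture drives cells towards fat, and dexamethasone is a glucocorticoid that dampens inflammatory gene expression, so no culture is free of it. Genotype and age are not stated in the labels.

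Type I interferons bind a receptor on nearly all cells, which starts signalling through kinases of the JAK family. Many type I target promoters carry the interferon-stimulated response element (ISRE), and many targets of interferon gamma carry the gamma-activated site (GAS). Stromal cells keep a low basal level of many such genes and raise them strongly on contact with interferon or with viral nucleic acid.

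Promoter windows with a match are shown for Ifit1, Ifit3, Rsad2, Cxcl10 and Irf1 to place these elements. Windows of Isg15 and Ifit2 with a match are not shown, nor is that of Irf7, which held none. Each window runs from 250 bases before to 50 bases after an annotated start, from RefSeq on GRCm38.p6, read 5′ to 3′ on the gene's strand. Capitals mark a match to the ISRE core, which is GAAA, any 2 bases and GAAA again, or to its reverse complement with TTTC at both ends. For Irf1 they mark a match to the GAS core TTCNNNGAA. Both strands were searched.
Ifit1 (chr19:34640639-34640938, plus strand): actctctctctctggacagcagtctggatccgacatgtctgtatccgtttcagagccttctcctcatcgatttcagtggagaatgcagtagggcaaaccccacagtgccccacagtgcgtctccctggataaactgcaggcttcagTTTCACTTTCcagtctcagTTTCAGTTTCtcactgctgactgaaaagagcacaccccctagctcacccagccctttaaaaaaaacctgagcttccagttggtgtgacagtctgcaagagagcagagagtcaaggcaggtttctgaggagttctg
Ifit3 (chr19:34583279-34583578, plus strand): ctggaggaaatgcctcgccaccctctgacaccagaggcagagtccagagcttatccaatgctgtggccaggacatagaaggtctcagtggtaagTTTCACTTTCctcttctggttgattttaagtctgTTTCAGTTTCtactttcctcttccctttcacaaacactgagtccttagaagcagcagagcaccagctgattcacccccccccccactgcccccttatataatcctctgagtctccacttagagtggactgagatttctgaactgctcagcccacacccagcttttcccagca
Rsad2 (chr12:26456403-26456702, minus strand): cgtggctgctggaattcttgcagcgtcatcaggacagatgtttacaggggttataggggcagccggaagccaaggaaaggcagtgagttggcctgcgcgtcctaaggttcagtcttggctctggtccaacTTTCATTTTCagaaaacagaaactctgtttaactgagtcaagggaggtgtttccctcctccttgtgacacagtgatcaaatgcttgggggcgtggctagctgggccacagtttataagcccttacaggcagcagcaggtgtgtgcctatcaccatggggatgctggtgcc
Cxcl10 (chr5:92348840-92349139, minus strand): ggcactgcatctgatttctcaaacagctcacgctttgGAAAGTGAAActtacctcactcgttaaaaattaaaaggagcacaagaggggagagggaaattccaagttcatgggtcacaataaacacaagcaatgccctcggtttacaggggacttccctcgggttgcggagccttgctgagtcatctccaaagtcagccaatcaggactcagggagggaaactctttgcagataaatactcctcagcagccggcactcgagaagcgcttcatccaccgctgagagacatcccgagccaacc
Irf1 (chr11:53769764-53770063, plus strand): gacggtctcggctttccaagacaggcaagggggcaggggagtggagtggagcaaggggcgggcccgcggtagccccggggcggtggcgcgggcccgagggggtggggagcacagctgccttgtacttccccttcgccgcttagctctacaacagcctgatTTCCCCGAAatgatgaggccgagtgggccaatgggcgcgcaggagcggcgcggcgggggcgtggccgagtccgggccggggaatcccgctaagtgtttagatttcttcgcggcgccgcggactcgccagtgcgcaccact

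The first bases of the ISRE matches lie 104 and 85 bases before the start in Ifit1, 156 and 122 before it in Ifit3, 120 before it in Rsad2 and 213 before it in Cxcl10. The GAS match of Irf1 begins 90 bases before the start. RefSeq windows matched 8 of the 9 members, Usp18 being the other, and gave 10 windows, because Irf1 and Ifit2 have 2 starts each. An ISRE match was found in 5 of these 10 windows, those of Ifit1, Ifit3, Rsad2, Isg15 and Cxcl10, and in 3.44% of all 32851 mouse windows of this length. The 3 matches of Isg15 overlap one another. A GAS match was found in 2 of the 10 windows, 1 of Irf1 and 1 of Ifit2, and in 8.30% of all windows. A match is a stretch of letters and shows no binding.

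Levels are the authors' deposited log2 values, in which 1 unit is a doubling. They hold for each probe set by itself, since probe sets differ in how brightly they bind. The middle probe set of the array lay at 4.84. At or above it were Irf1, Irf7, Ifit2, Cxcl10 and 1 of the 3 Rsad2 probe sets, and below it were Ifit1, Ifit3, Usp18 and the other 2 Rsad2 probe sets. Values of this second group lie near the floor of the array, where differences in RNA are compressed. The groups go by the mean over the 6 arrays. Cxcl10 read 4.38 to 4.83 in experiments 1 and 2, below the middle level, so the same limit may bear on its values there.

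**Figure D1:**
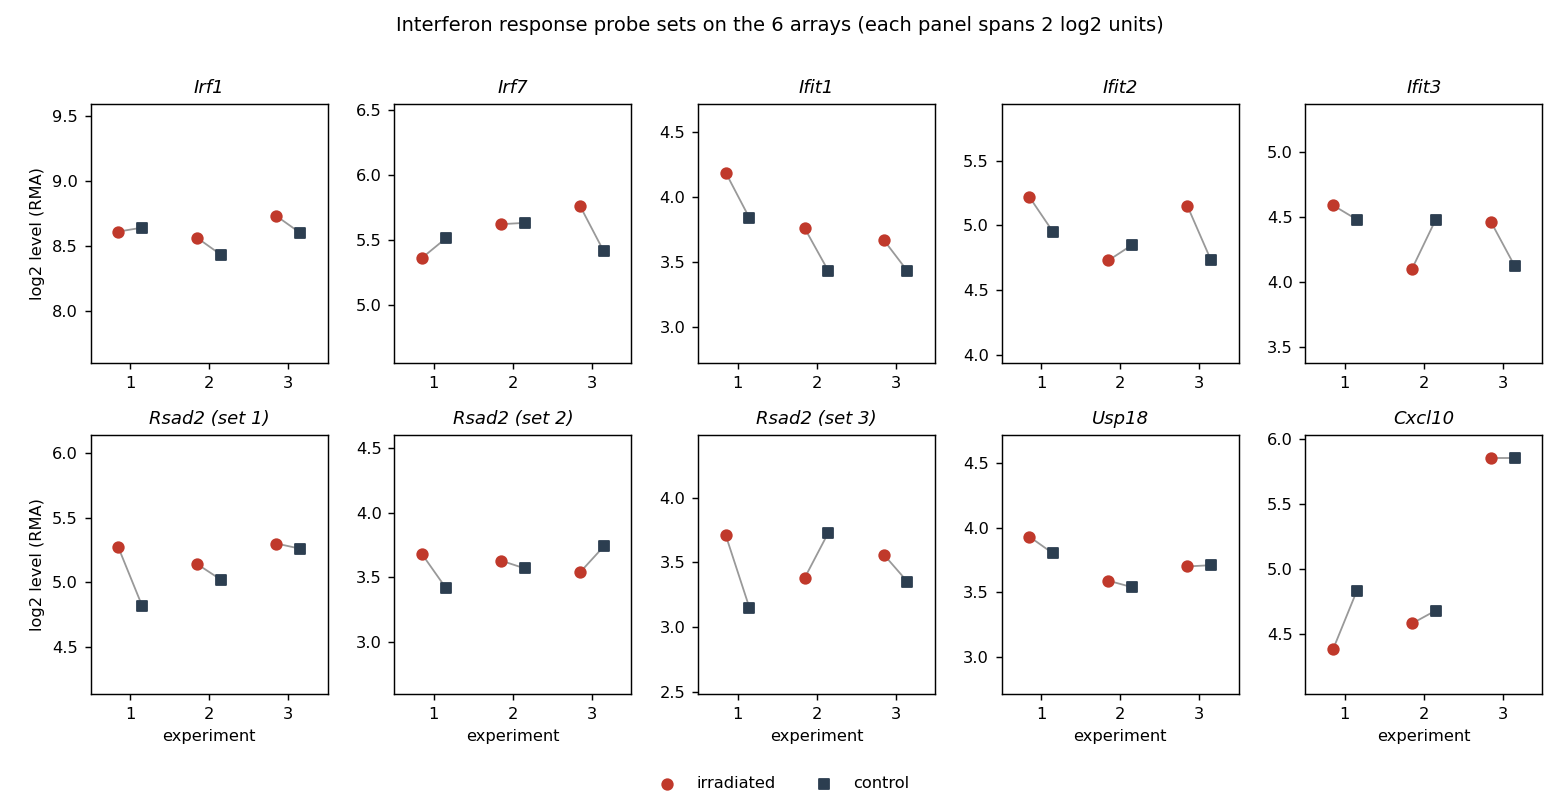
Deposited log2 level of each interferon response probe set on the 6 arrays, one panel per probe set spanning 2 log2 units, by experiment along the x axis; circles are irradiated cultures, squares to their right are the controls, and a line joins the 2 of an experiment. In all 10 panels the ranges of irradiated and control values overlap, and in the Cxcl10 panel both arrays of experiment 3 stand at 5.86 while the other 4 lie between 4.38 and 4.83.

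After 2 hours of irradiation, no interferon response gene differed from its control by more than the spread between experiments allowed the test to call. Irradiated minus control was above 0 for 9 of the 10 probe sets and below 0 for Cxcl10, with a median of 0.07 log2 units, against 0.0033 over all probe sets and a difference above 0 for 51.1% of them. That median was 0.163 without experiment 2, 0.083 without experiment 3 and 0.05 without experiment 1. None passed limma's test with Benjamini-Hochberg adjustment over all 45037 probe sets, where 0 were called (0.0%). At an unadjusted p under 0.05 there was 1 of 10 members, Ifit1, against 2237 probe sets or 4.97% of the array. All 10 of the 95% confidence intervals lay within a 1.5-fold change in either direction, as did those of 97.2% of all probe sets.

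The Ifit genes encode tetratricopeptide proteins that recognise foreign RNA and block its translation, and they sit together on chromosome 19. Ifit1 (chr19:34640889-34650009) had levels of 4.19, 3.76 and 3.67 in irradiated cultures 1, 2 and 3, against 3.84, 3.43 and 3.43 in their controls. Each irradiated culture was higher than its own control, by 0.35, 0.33 and 0.24, while the 2 groups overlapped because experiment 1 was higher in both arms. The difference was 0.31 ± 0.08 log2 units (SE, n = 3 pairs), or 1.24-fold, with a 95% confidence interval of 0.12 to 0.49 and a limma p of 0.0067 that became 0.929 after adjustment over all probe sets. A smaller p was reached by 197 probe sets, 0.437% of those tested.

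Ifit2 (chr19:34550550-34576534) stood at 5.22, 4.73 and 5.15 in irradiated cultures and at 4.95, 4.85 and 4.73 in controls. Experiment 2 ran against the other 2, and the difference of 0.19 ± 0.12 (SE, n = 3 pairs) had an adjusted p of 0.929 in limma. Ifit3 (chr19:34583119-34588982) stood at 4.59, 4.10 and 4.46 in irradiated cultures and at 4.48, 4.48 and 4.12 in controls. Its mean of 4.38 ± 0.25 under irradiation and 4.36 ± 0.21 in controls (SD, n = 3 each) left a difference of 0.02 with pairs from -0.38 to 0.34. Ifit3 has a near-identical neighbour in the mouse, Ifit3b, and the signal of the 2 genes may not be separable on this probe set.

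Rsad2 encodes viperin, a radical SAM enzyme that makes a chain-terminating nucleotide against viral polymerases (chr12:26442743-26456452). Its brightest probe set read 5.27, 5.14 and 5.30 in irradiated cultures, against 4.82, 5.02 and 5.26 in controls, higher in each pair by 0.45, 0.12 and 0.04. The mean was 5.24 ± 0.09 in irradiated cultures and 5.03 ± 0.22 in controls (SD, n = 3 each), a difference of 0.20 ± 0.10 (SE) with an adjusted p of 0.929 in limma. The size of this difference came mostly from experiment 1.

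The other 2 Rsad2 probe sets read lower, and their pairs did not run one way. One read 3.68, 3.63 and 3.54 in irradiated cultures and 3.42, 3.57 and 3.74 in controls, with a difference of 0.04 ± 0.11 (SE). The other read 3.71, 3.38 and 3.56 in irradiated cultures and 3.15, 3.73 and 3.35 in controls, with a difference of 0.14 ± 0.17 (SE). In experiment 1 all 3 Rsad2 probe sets were higher in the irradiated culture, by 0.26 to 0.56, and in experiments 2 and 3 they differed in sign.

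Irf1 and Irf7 are transcription factors of the interferon system: Irf1 is induced by interferon gamma through its GAS, and Irf7 is the amplifier of type I interferon production. Irf1 (chr11:53770014-53778374) read 8.61, 8.56 and 8.73 in irradiated cultures and 8.64, 8.43 and 8.60 in controls, with experiment 1 alone on the other side of 0. Its values spanned 0.3 log2 units over all 6 arrays, and the difference was 0.08 ± 0.08 (SE, n = 3 pairs) with an adjusted p of 0.949 in limma. Irf7 (chr7:141263183-141266499) read 5.36, 5.62 and 5.76 in irradiated cultures and 5.51, 5.63 and 5.41 in controls. Its pairs differed by -0.15, -0.01 and 0.35, so the mean difference of 0.06 ± 0.11 (SE) rested on experiment 3.

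Usp18, a protease that removes ISG15 from proteins and blocks the type I receptor, is a feedback inhibitor of the response (chr6:121245906-121270917). It read 3.93, 3.59 and 3.70 in irradiated cultures and 3.80, 3.54 and 3.71 in controls. Both arms were close in each experiment, with pair differences of 0.13, 0.05 and -0.01 and a mean difference of 0.06 ± 0.08 (SE, n = 3 pairs, limma adjusted p = 0.965).

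Cxcl10 encodes a chemokine that draws activated T cells and NK cells through the receptor CXCR3 (chr5:92346638-92348889). Its ISRE match lies farther from the start than those of Ifit1, Ifit3 and Rsad2. It read 4.38, 4.58 and 5.86 in irradiated cultures and 4.83, 4.68 and 5.86 in controls. Irradiated and control values were equal in experiment 3 and the irradiated culture was lower in experiments 1 and 2, by 0.45 and 0.10. The mean was 4.94 ± 0.80 in irradiated cultures and 5.12 ± 0.64 in controls (SD, n = 3 each), and the paired difference of -0.18 ± 0.11 (SE) had an adjusted p of 0.929 in limma. The wide spread within each arm came from experiment 3.

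**Figure D2:**
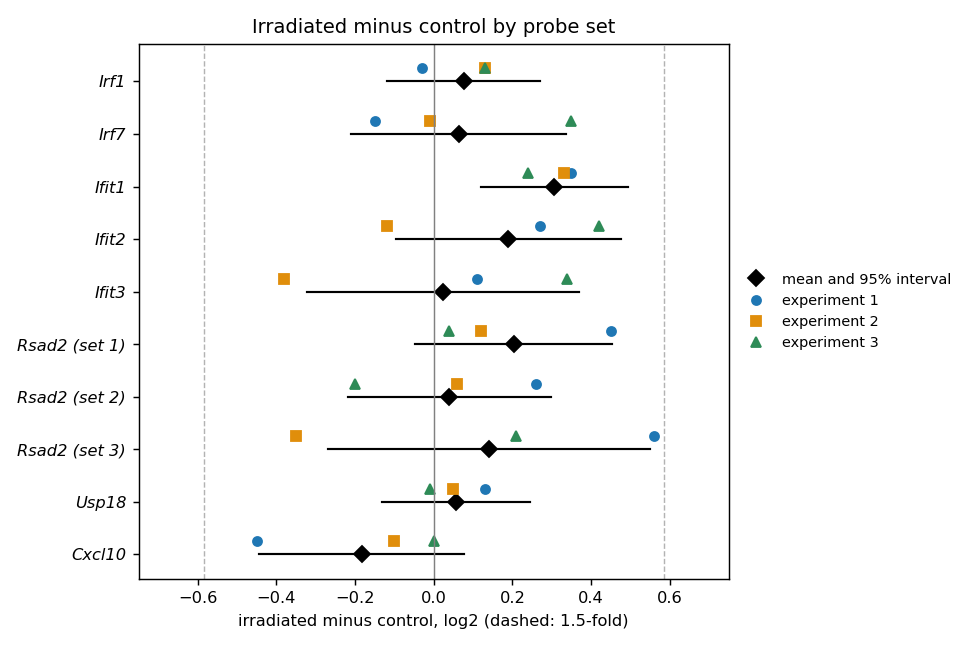
Irradiated minus control in log2 units for each interferon response probe set, with 1 point per experiment, and a diamond and bar for the limma mean and its 95% confidence interval; dashed lines mark 1.5-fold. Only Ifit1 has an interval above 0 (0.12 to 0.49), and no adjusted p is under 0.895 in any setting tried.

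Over the members, 2 of 10 probe sets were higher in all 3 pairs, Ifit1 and the brightest of Rsad2, against 12.6% of all probe sets. In none of the 10 did the irradiated and control groups separate without overlap, which 6.73% of all probe sets did. The median difference of the members was 0.195 in experiment 1, 0.02 in experiment 2 and 0.17 in experiment 3, where the median of all probe sets was 0.01, 0 and 0. The number of probe sets above 0 was 7, 5 and 7 of 10 in these experiments, against 22525, 22377 and 22183 of all 45037. With 3 pairs the smallest p an exact sign-flip test can give is 0.25. Since levels are from bulk cultures, fewer cells of a type and less RNA per cell cannot be told apart.

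Markers of other cell types were compared between the arms in the same fit, with none called. Of 14 macrophage and leukocyte markers, all 14 lay at or above the middle level of the array, and their mean level was 10.95 to 11.04 in irradiated cultures and 10.77 to 10.99 in controls. Irradiated minus control was above 0 for 13 of these 14, with a median of 0.08, and for 51.1% of all probe sets. It was also above 0 for 8 of 9 lymphocyte and NK cell markers (median 0.067) and 7 of 8 endothelial markers (median 0.085). The same held for 4 of 6 plasmacytoid dendritic cell markers and 9 of 13 mesenchymal stromal markers. Of 8 adipocyte markers, 7 were below 0, with a median of -0.13. Cidec, a lipid droplet protein, differed by -0.48 ± 0.09 and the hormone gene Retn by -0.32 ± 0.08 (SE, limma adjusted p = 0.929 each). Both were lower in all 3 irradiated cultures than in their controls, by more than any member differed on average. Of 13 mesenchymal stromal markers, 12 lay at or above the middle level, Thy1 being the exception at 3.51 to 4.07. At or above the middle level were 3 of 6 plasmacytoid dendritic cell markers, with the defining Siglech and Ccr9 below it, 2 of 9 lymphocyte and NK cell markers and 2 of 8 endothelial markers. The part of these markers in the members' differences was not tested.

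The wider interferon pathway gave no call under irradiation. Of 149 genes in 9 lists, from ligands to feedback inhibitors, 129 were measured; 68 were above 0 and 59 below it, with a median of 0.003 and a range of -0.23 to 0.30. At an unadjusted p under 0.05 there was 1 of the 129, Tlr7, against 4.97% of the array, and all 129 confidence intervals lay within 1.5-fold. Of the 9 ligand genes measured, 1 lay at or above the middle level of the array. Ifnb1, the gene of interferon beta, chosen after its values were seen, read 4.23, 4.26 and 3.88 in irradiated cultures and 4.06, 4.23 and 4.48 in controls.

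Upstream of the members, the 6 receptor genes differed by -0.03 to 0.05 between irradiated and control cultures. Among 6 JAK-STAT genes 3 were above 0 and 3 below it, with Tyk2 at 0.11 ± 0.09 (SE). Of 5 other IRF family genes 4 were above 0, with Irf5 at 0.13 ± 0.08 (SE). Among 15 nucleic acid sensors and adaptors, 8 were above 0 and 6 below it. Tlr7, the endosomal sensor of single-stranded RNA, read 9.02, 8.76 and 8.61 in irradiated cultures and 8.75, 8.62 and 8.12 in controls, a difference of 0.30 ± 0.09 (SE, limma adjusted p = 0.929). Zbp1, a sensor of Z-form nucleic acid that is itself interferon-induced, differed by -0.23 ± 0.09 (SE, limma adjusted p = 0.929). It was lower in each pair, and 23.8% of all probe sets ran one way in all 3 pairs. Its experiment means of 4.385 to 4.705 lay below the middle level of the array.

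Downstream, 49 other type I interferon targets split into 25 above 0 and 24 below it, with a median of 0.003. Parp14, an ADP-ribosyltransferase, and Xaf1, a promoter of apoptosis, had the smallest p and lay on opposite sides of 0. They differed by 0.17 ± 0.08 and -0.14 ± 0.08 (SE, limma adjusted p = 0.929 each). The 17 type II targets had a median of -0.02, and the 12 genes of antigen processing and class I one of 0.003. The 10 negative regulators split evenly, 5 above 0 and 5 below it.

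**Figure D3:**
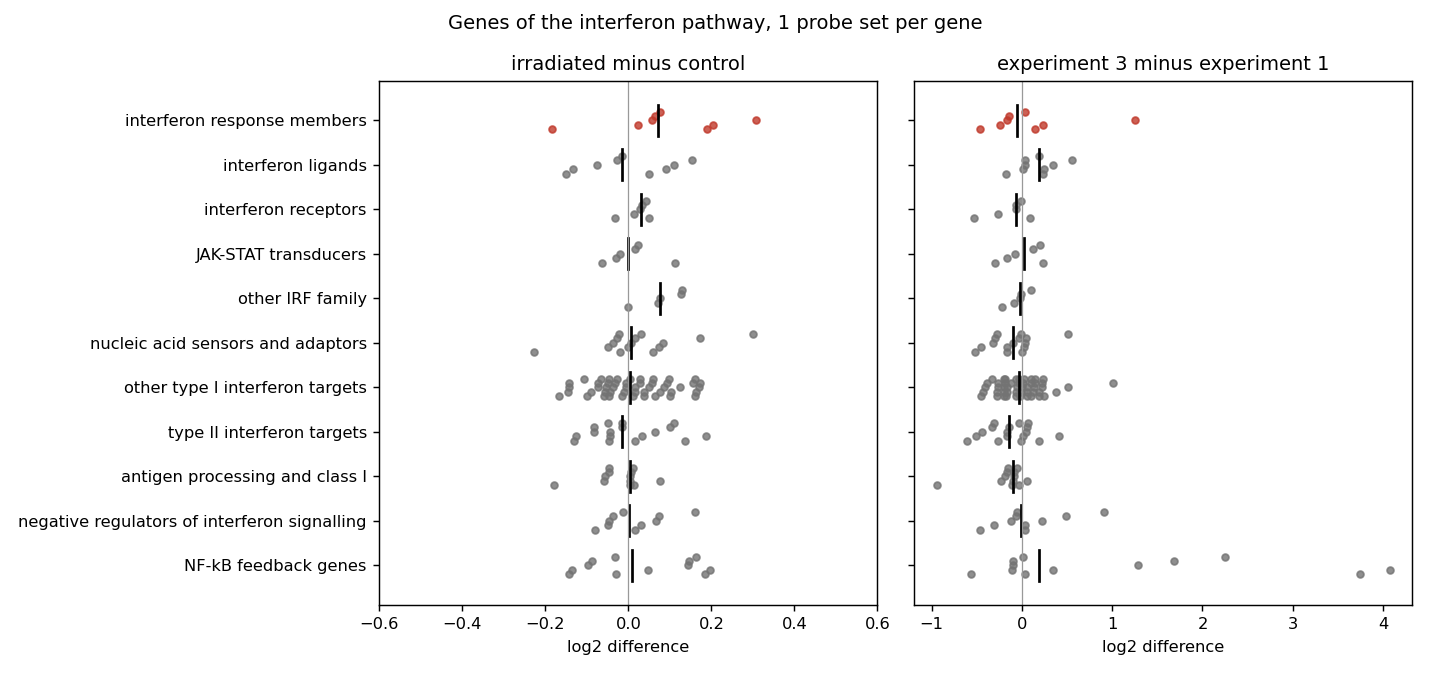
Log2 difference of each measured gene in the interferon response set and 10 pathway lists, for irradiated minus control (left) and experiment 3 minus experiment 1 (right); points are genes, by 1 probe set each, and the vertical bar is the median of a list. Medians on the left lie between -0.02 and 0.08, and on the right Cxcl10 stands apart from the other members at 1.26.

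Between experiments, Cxcl10 was higher in experiment 3 in both arms. Both arrays of experiment 3 read 5.86, against 4.38 and 4.83 in experiment 1 and 4.58 and 4.68 in experiment 2. Experiment means were thus 5.86 in experiment 3, 4.63 in experiment 2 and 4.61 in experiment 1. Experiment 3 exceeded experiment 1 by 1.26 ± 0.13 log2 units (SE, n = 2 arrays each), or 2.39-fold with a 95% confidence interval of 1.91 to 2.98, at a limma adjusted p of 0.00909. The 2 arrays of an experiment are its irradiated and its control culture. This SE, interval and p therefore measure the spread between arms, not that between repeated experiments. Both arrays of experiment 3 lay above the other 4, as they did for 10.6% of all probe sets. Leaving out any 1 of the 6 arrays gave differences of 1.06 to 1.46 for Cxcl10. No probe set of the array was called in those fits, which leave 1 residual degree of freedom. The loss of the call there is thus not particular to Cxcl10.

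Of the 10 members, Cxcl10 was the 1 called in experiment 3 against experiment 1, where 3.05% of all probe sets were called and 1.87% as higher. A larger difference of either sign was found for 341 probe sets, 0.757% of those tested. Against experiment 2 its difference was 1.23 ± 0.13 (SE), or 2.35-fold, at a limma adjusted p of 0.0719, with 0.0355% of probe sets called. That adjusted p was 0.0499 without the term for irradiation, 0.0442 among probe sets at or above the middle level and 0.00841 with an intensity trend. The level filter gives no separate support, because Cxcl10 passed it only through experiment 3. It read 5.86 on both arrays there and 4.38 to 4.83 on the others, all below the middle level of 4.84. Between experiments 2 and 1 it was 0.03 ± 0.13 (SE), where 0.52% of probe sets and 0 members were called.

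The other 9 probe sets, of 7 genes, were not called in any of the 3 comparisons of experiments. Their differences ran from -0.47 to 0.24 for experiment 3 against 1, with adjusted p of 0.0621 to 0.966. At an unadjusted p under 0.05 there were 2 members of 10 for experiment 3 against 1 (19.1% of all probe sets), 2 for 2 against 1 (9.89%) and 1 for 3 against 2 (9.89%). Ifit1 lay at the low end: its mean was 3.55 in experiment 3, 3.60 in experiment 2 and 4.02 in experiment 1, and experiment 3 minus experiment 1 was -0.47 ± 0.09 (SE, limma adjusted p = 0.0621). Both arrays of experiment 1 lay above the other 4 for Ifit1, as they did for 14.7% of all probe sets. For experiment 3 minus experiment 1, the values of Cxcl10 and Ifit1 had opposite signs. Ifit1 was not called and lies below the middle level of the array. Any part of the ISRE matches in these values was not tested. Over all 6 arrays these 9 probe sets spanned 0.3 to 0.76 log2 units, and Cxcl10 spanned 1.48.

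The arrays of the 3 experiments also differed in RNA measures. For Gapdh, the control probe sets at its 3′ end minus those at its 5′ end, which bear on RNA length, gave -0.01 and -0.03 in experiment 3, -0.03 and -0.05 in experiment 2 and 0.23 and 0.19 in experiment 1, for irradiated and control. For Actb the same measure was 0.62 and 0.72 in experiment 3, 0.61 and 0.62 in experiment 2 and 0.76 and 0.75 in experiment 1, so that control 3 lay near experiment 1. The spike-in controls averaged 11.63 in control 3 and 11.06 to 11.25 on the other 5 arrays. Experiment 3 minus experiment 1 had a median of -0.18 over the macrophage and leukocyte markers, with none called. Of the lymphocyte and NK cell markers 1 of 9 was called higher, Gzmb at 0.55 ± 0.10 (SE, limma adjusted p = 0.0461). Of the endothelial markers 1 of 8 was, Pecam1 at 0.56 ± 0.10 (SE, limma adjusted p = 0.0495). Of all probe sets, 1.87% were called higher. Pecam1 read 2.58 to 3.21, below the lower quartile of every array (3.4 to 3.43). Its values thus lie near the floor of the array, which limits what this call can show. The part of these measures in the difference of Cxcl10 was not tested, and the labels name no batch beyond the experiment.

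Among single-gene probe sets at or above the middle level, 3 of other genes had the profile over the 6 arrays closest to that of Cxcl10. Each profile was centred on its own mean. The 3 were Ier5l, the phosphate transporter Slc20a1 and the zinc finger gene Zfand2a, at root mean square distances of 0.147, 0.158 and 0.158 log2 units. The probe sets at that level numbered 20236, Cxcl10 included, and those below it were not searched. Correlations over the 6 arrays were 0.97, 0.97 and 0.965, points that share array and experiment. The 3 genes were picked for closeness on these same values. High correlations and like differences between experiments therefore follow from the choice. Experiment 3 minus experiment 1 was 1.195 for Ier5l, 1.395 for Slc20a1 and 1.30 for Zfand2a. The other members spanned under 1 log2 unit and were not matched in this way.

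Cxcl9 and Cxcl11 encode the other 2 ligands of CXCR3, and their values were read after that of Cxcl10 was seen. Cxcl9 averaged 3.67 in experiment 3 and 3.63 in experiment 1, and Cxcl11 averaged 3.56 in experiment 3 and 3.36 in experiment 1. Their differences of 0.05 ± 0.11 and 0.20 ± 0.18 (SE) had limma adjusted p of 0.871 and 0.609. Cxcl10 was the 1 ligand of the 3 that was called, and whether the ligands differ from one another was not tested.

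Among genes that NF-kB, the inflammatory transcription factor, is known to drive, 5 of 12 were called higher in experiment 3 than in experiment 1, and 1.87% of all probe sets were. These 5 are cytokine and chemokine genes. The list was chosen with earlier results of these data known, so its share of calls is no independent support. All 12 genes, each by its brightest probe set, also lie at or above the middle level, unlike the array as a whole. Cxcl1 and Cxcl2, chemokines that attract neutrophils, rose by 3.74 ± 0.18 and 4.08 ± 0.21 log2 units (SE, limma adjusted p of 0.000694 and 0.000736). Il6, the inflammatory cytokine, rose by 2.25, and the monocyte chemokines Ccl7 and Ccl2 by 1.69 and 1.28. In experiment 2 against experiment 1, where Cxcl10 was 0.03 apart, 4 of the 12 were called, Cxcl1, Cxcl2, Il6 and Ccl7. Of all probe sets, 0.52% were called there. Both comparisons share the arrays of experiment 1. The other 7 genes of the list, among them the NF-kB inhibitors Nfkbia and Tnfaip3, were not called in either comparison. In experiment 3 against experiment 1, Nfkbia was at -0.10, Tnfaip3 at -0.095, Vcam1 at -0.11 and Birc3 at -0.565, and Relb, Nfkbie and Nfkb2 were at 0.01, 0.035 and 0.34. In experiment 2 against experiment 1 these 7 lay between -0.095 and 0.135.

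**Figure D4:**
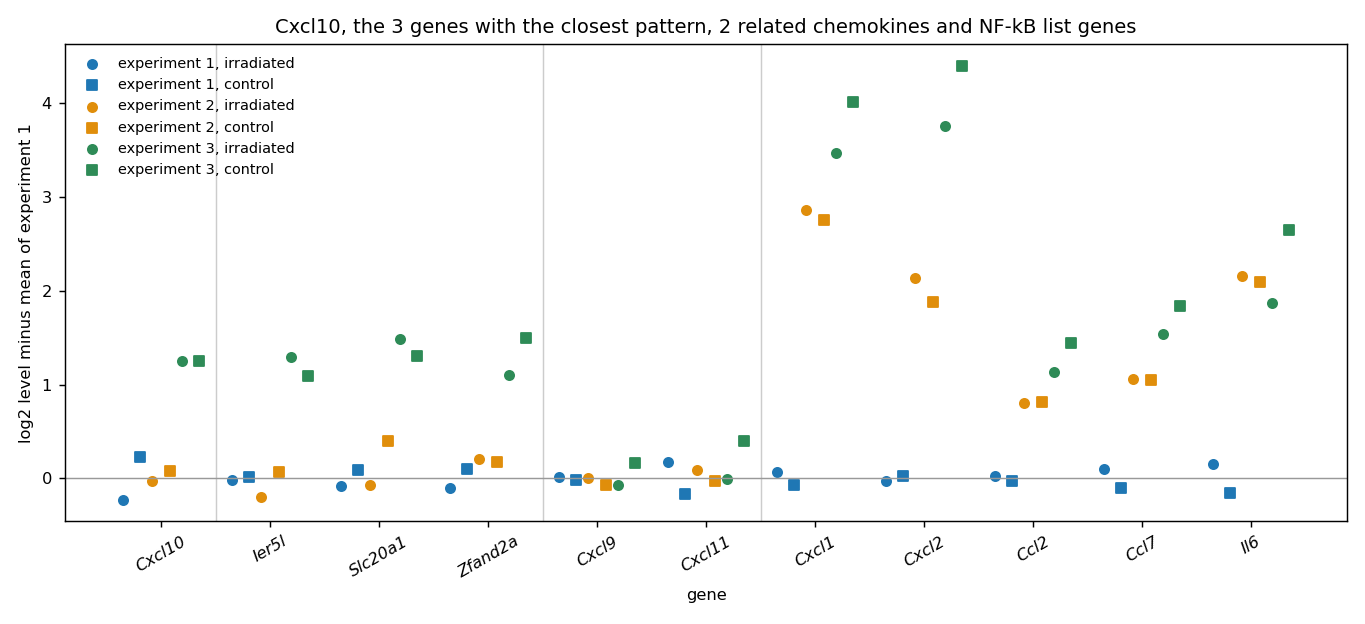
Log2 level minus the gene's mean in experiment 1, with 6 arrays each as points coloured by experiment, circles for irradiated cultures and squares for controls. Shown are Cxcl10, the 3 closest probe sets at or above the middle level, the other 2 CXCR3 ligands and 5 NF-kB target genes. Cxcl10 is raised in both arrays of experiment 3 and not in experiment 2, while Cxcl1 and Cxcl2 are raised in both experiments and Cxcl9 and Cxcl11 stay within 0.4 of its mean in experiment 1.

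In the interferon lists, 3 of 129 genes were called higher and 1 lower in experiment 3 than in experiment 1, or 3.1%, against 3.05% of the array. Isg20, an RNA exonuclease induced by interferon, rose by 1.01 ± 0.11 (SE, limma adjusted p = 0.0116), with means of 7.29 in experiment 3 and 6.28 in experiment 1. Socs3, an inhibitor of cytokine receptor signalling, rose by 0.91 ± 0.10 (adjusted p = 0.0112), and Ticam1, the adaptor of TLR3, by 0.52 (adjusted p = 0.0491). Nlrc5, the activator of class I genes, fell by 0.94 (SE 0.13, adjusted p = 0.0219). The median of the 129 was -0.05, with 52 above 0 and 77 below it, and leaving out any 1 array left 0 of all probe sets called.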

How the data were processed

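RNA from 3 irradiated and 3 control cultures was hybridised to Affymetrix arrays, 1 array per culture, with 200 ng of total RNA each per the labels' protocols. The authors deposited log2 values per probe set. Per the submitters' processing notes the tools were limma, affy and RMA, without versions or roles. The log base is not stated and was taken as 2, the scale of RMA. Values have 2 decimals. RMA equalises arrays, so a shift common to every transcript is invisible, and the number of arrays limits precision.

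Of 45101 probe sets, 64 controls were left out. Platform annotation gave 34945 of the rest 1 gene symbol, 932 several and 9160 none. Coordinates and promoters are from RefSeq tables of GRCm38.p6, used for names and sequence; no build is stated for the array.

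A linear model with experiment and irradiation as terms was fitted with limma 3.58.1 in R 4.3.3 (lmFit, eBayes), with Benjamini-Hochberg adjustment over 45037 probe sets and a threshold of 0.05. It was also run on data simulated from the same model, with independent errors and no differences other than planted ones. That run cannot show that the model suits these arrays. The experiment is a block because the labels place each control beside its irradiated culture; deviations of same-numbered arrays from group means correlated at 0.63, 0.14 and 0.50. Comparisons of experiments rest on 2 arrays each, 1 per arm, so their SE, intervals and p measure the spread of the arms only. Alternatives were no replicate block or a random one, array weights, an intensity trend, a robust prior, quantile normalization, median centring, a level filter, the mean of a gene's probe sets, no term for irradiation, and leaving out each experiment or array.

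In each pathway list, the 2 genes with the smallest p in each comparison could be named, plus those called. A gene was represented by its brightest single-gene probe set. Profiles like a member's were ranked by root mean square distance for members spanning at least 1 log2 unit, among single-gene probe sets at or above the middle level. Members and lists were chosen with earlier results of these data known.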

Additional observations from a re-analysis of the deposited data

How the results depend on the processing

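Irradiated against control gave 0 calls in every setting tried, including the fit with no replicate block (0 probe sets, 0 members, median 0.07), where 1297 probe sets had an unadjusted p under 0.05; the block changed no call. The median over the members was 0.05 to 0.163 when 1 experiment was left out. The lowest adjusted p of a member in any setting was 0.895, and 6 of the 10 member differences kept 1 sign throughout. Leaving out each experiment in turn gave -0.08 to 0.17 for Irf7, -0.07 to 0.16 and -0.07 to 0.385 for the dimmer Rsad2 probe sets, and -0.135 to 0.225 for Ifit3, which was -0.031 with array weights. For comparisons of experiments, 3 settings moved a count of calls by over 1.5 times. With probe sets at or above the middle level, which keeps 5 of the 10 members, there were 374 (2 against 1), 2513 (3 against 1) and 64 (3 against 2). With an intensity trend there were 670, 3534 and 275, and with no term for irradiation 320, 1866 and 52. In the other settings on all arrays (quantile normalization, median centring, robust prior, array weights) the counts were 215 to 350, 1138 to 1438 and 16 to 24. For 3 against 2, Cxcl10 was the 1 member called with the level filter, with the intensity trend and with no term for irradiation. In the other settings on all arrays it was not called, with limma adjusted p of 0.0534 to 0.0789. Leaving out 1 array leaves 1 residual degree of freedom, and then 0 to 0 probe sets and 0 to 0 members were called in each comparison of experiments, with 1920 to 8607 at an unadjusted p under 0.05. Cxcl10 for 3 against 1 was then 1.055 to 1.455. Signs turned in 15 of 30 member comparisons when 1 array was left out. For 2 against 1 the ranges were -0.175 to 0.225 for Cxcl10, -0.15 to 0.22, -0.115 to 0.215 and -0.242 to 0.492 for Rsad2, and -0.547 to 0.058 for Ifit3. For 3 against 1 they were -0.065 to 0.365 for Irf7, -0.318 to 0.027 for Ifit2, -0.09 to 0.27 and -0.29 to 0.34 for the dimmer Rsad2 probe sets, and -0.04 to 0.12 for Irf1. For 3 against 2 they were -0.255 to 0.175 for Irf7, -0.082 to 0.382 for Ifit2, -0.14 to 0.22 and -0.468 to 0.267 for the dimmer Rsad2 probe sets, and -0.095 to 0.005 for Ifit1. Of the 10 member probe sets, 5 lie near the floor of the array, which limits what their values can show.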
